A study of Mus musculus with 18 samples.

Results

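The 10 genes followed here are ones that cells switch on within minutes of a stimulus or of damage to their proteins, and which enzymatic digestion of a tissue is known to induce: Fos, Fosb, Jun, Junb, Egr1, Atf3 and Ier2 of the immediate early programme, and Dnajb1, Hspa1a and Hspa1b of the heat shock programme. They were chosen by symbol, as 10 of the 23337 genes in the count table, and the rule uses no measured value. All 10 passed the filter on low counts, which left 17143 genes for testing. The libraries came from sorted immune cells of atherosclerotic vessels.

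Immediate early genes need no new protein synthesis to be transcribed: kinases of the MAP kinase family act on factors such as serum response factor and CREB that already sit at their promoters, and most of the products are themselves transcription factors. Fos and Jun family proteins pair to form AP-1. Heat shock genes are driven mainly by HSF1, which is released when unfolded proteins occupy the chaperones that hold it, and their products refold or clear those proteins.

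All mice were of the C57BL/6 background, lacked Apoe (Apoe-/-), carried the Cx3cr1 GFP and Cd11c YFP reporter alleles and were 7 months old after 5 months on a Western diet, so that these features were shared by all groups. Both sexes were used. Aortas and carotid arteries were digested with enzymes, and live (7AAD-negative) CD45+ cells were sorted into 4 subsets: GFP (only the Cx3cr1 reporter, n = 6 libraries), DP (both reporters, n = 4), YFP (only the Cd11c reporter, n = 5) and DN (neither, n = 3). The reporters mark whatever cells have the Cx3cr1 or Cd11c (Itgax) gene active and so are not limited to 1 cell type. Vessels that were not digested were not analysed here, so induction by handling and expression in the living vessel cannot be told apart. Whether each replicate was its own mouse is not in the labels, and p-values here reflect only how far these libraries scatter, which may be technical.

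Total counts ran from 9790946 to 27742113 per library, apart from YFP replicate 6 with 289166. Libraries numbered 1 and 2 detected 19245 to 21972 genes, and those numbered 3 to 6 detected 13150 (YFP replicate 6) to 18961. These are the number sets used below. Markers of immune cells were present in every library, with a summed level of 3275 to 10156 CPM (counts relative to the library size, scaled between libraries by the TMM method) and none of the 5 at 0. Transcripts of the reporter genes themselves went against the label in 5 libraries: DP replicates 4 and 5 had Cx3cr1 at 9.43 and 0.427 CPM and Itgax at 38.6 and 47.8, and DN replicates 3 and 6 had Cx3cr1 at 142 and 134 CPM and Itgax at 332 and 297. YFP replicate 6, the shallow library, had Itgax at 89.6 CPM, below the GFP range of 107 to 191, and Cx3cr1 at 104, within that of GFP (80.9 to 165). These are named below as labelled, and each count of calls was repeated without the first 4 and without all 5, which leaves 1 DN library. Markers of other cells varied within and between subsets: the 8 fibroblast markers summed to 234 to 1046 CPM for GFP, 1227 to 11719 for DP, 845 to 10632 for YFP and 2137 to 4299 for DN, and the 9 neutrophil markers reached 39169 CPM for DP replicate 5. Their part in the results was not tested. In bulk libraries, fewer cells of a type and less RNA per cell cannot be told apart.

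Hspa1a, Hspa1b and Jun were picked for display since their levels went together across these same libraries and each carries the heat shock element letters. Whether the letters have a part in those levels was not tested. Egr1, which went with Jun, and Ier2 were not matched in the promoter table. The upstream sequences of the 3 picked genes are shown first. They are the 250 bases before the start of Hspa1a (chr17:34972157-34972406, minus strand) and Hspa1b (chr17:34959239-34959488, minus strand), and the 150 bases before the start of Jun (chr4:95052223-95052372, minus strand), from RefSeq (GRCm38.p6), 5′ to 3′, with the heat shock element pair GAANNTTC and the CCAAT box (either strand) in capitals.
Hspa1a: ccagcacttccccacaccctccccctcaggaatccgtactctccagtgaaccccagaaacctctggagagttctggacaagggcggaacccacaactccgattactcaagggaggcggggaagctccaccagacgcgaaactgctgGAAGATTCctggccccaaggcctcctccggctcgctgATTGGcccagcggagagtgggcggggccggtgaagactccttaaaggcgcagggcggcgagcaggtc
Hspa1b: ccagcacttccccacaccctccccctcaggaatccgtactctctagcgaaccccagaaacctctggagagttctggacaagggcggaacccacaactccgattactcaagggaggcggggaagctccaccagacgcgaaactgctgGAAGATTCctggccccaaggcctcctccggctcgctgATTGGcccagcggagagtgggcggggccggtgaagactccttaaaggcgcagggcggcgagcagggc
Jun: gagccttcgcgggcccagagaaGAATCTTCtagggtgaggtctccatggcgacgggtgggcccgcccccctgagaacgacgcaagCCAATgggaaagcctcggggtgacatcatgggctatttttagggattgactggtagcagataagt
Hspa1a and Hspa1b, neighbours in the MHC region of chromosome 17, differ at 3 of these 250 bases. Both have the element pair from 104 to 97 bases before the start, and Jun has it from 128 to 121 bases before. Among 32851 RefSeq promoters, 6.7% hold GAANNTTC and 33.8% hold CCAAT within 250 bases upstream, on either strand. Of the 8 of 10 genes with a promoter entry, these 3 were the ones with GAANNTTC. The same letters were not in this window of Dnajb1. The core letters of the cAMP response element, TGACG, were found in Fos, Fosb, Junb, Atf3 and Dnajb1, against 17.8% of all promoters, and Fos also holds TATAAA (12.4%). A match is a description of the letters and not of binding.

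Most of the genes were among the most abundant transcripts of these libraries. Together they took 2.19% ± 0.287 (SD, n = 6) of all counts for GFP, 1.79% ± 0.573 (n = 4) for DP, 1.43% ± 0.529 (n = 5) for YFP and 1.52% ± 0.124 (n = 3) for DN. Per kilobase of exon, and ranked among 20918 genes in each library, Junb was in the top 100 in 18 of 18 libraries, with a median rank of 17.5. Fos followed with a median rank of 29 (17 libraries in the top 100) and Atf3 with 31.5 (15 libraries). Hspa1b and Hspa1a, the inducible HSP70 chaperones, had median ranks of 56 and 74, and Jun one of 84.5. Fosb, a relative of Fos that also pairs with Jun proteins, had a median rank of 2370.5 and was never above rank 716.

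**Figure D1:**
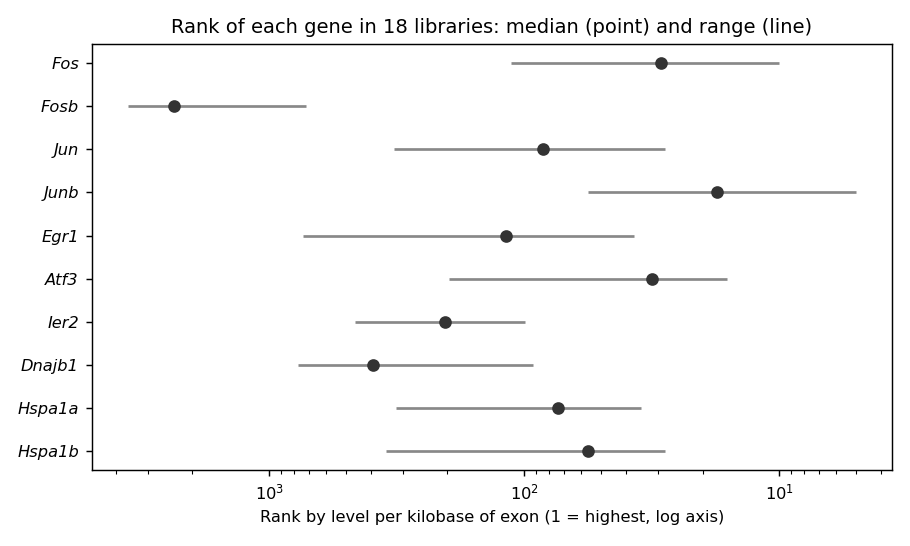
Rank of the 10 genes by level per kilobase of exon in each of 18 libraries (log axis, 1 is the highest level), with points at the median and lines from the best to the worst rank. Junb stays between ranks 5 and 56, and Fosb between 716 and 3579.

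Of the AP-1 subunits, Fos (chr12:85473890-85477273, plus strand) had 2695, 3332, 3972, 2945, 5365 and 4757 CPM for GFP, 2453, 2982, 4119 and 4597 for DP, 2616, 2672, 1841, 2536 and 2890 for YFP, and 934, 2826 and 3449 for DN. The subsets overlapped, and the lowest value of all was that of DN replicate 1. Jun (chr4:95049034-95052222, minus strand), whose locus also holds the antisense transcript Junos, had 2070, 2609, 2857, 1669, 1777 and 1622 CPM in GFP. It had 1768, 1518, 1703 and 1116 CPM for DP, 2077, 1321, 650, 1275 and 985 for YFP, and 842, 1680 and 772 for DN. All 6 GFP libraries were above 4 of the 5 YFP libraries, while YFP replicate 1 lay inside the GFP range. Junb (chr8:84974484-84978718, minus strand), whose product often acts as a weaker activator than Jun, ranged from 3829 to 7699 CPM for GFP, 2601 to 5726 for DP, 2199 to 6228 for YFP and 3375 to 4905 for DN. It overlaps Prdx2 on the other strand, and the sources used here do not give the strand setting of the counting. Its counts, like those of Jun, may include reads of the partner. Fosb (chr7:19302696-19310051, minus strand) was low throughout, from 62.5 to 326 CPM.

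Egr1, a zinc finger factor induced by growth factors and stress, ranged from 1401 to 2513 CPM for GFP, 664 to 2791 for DP, 808 to 2167 for YFP and 577 to 2016 for DN. Ier2 (chr8:84661331-84662852, minus strand), a small nuclear protein, ranged from 155 to 1236 CPM over the 18 libraries, with its highest value in DP replicate 5. Atf3 (chr1:191170296-191218039, minus strand), a stress-induced factor that dampens inflammatory genes in macrophages, had 2861, 2591, 4175, 3175, 4501 and 4248 CPM in GFP. It had 2760, 2624, 1125 and 1283 CPM for DP, 834, 2508, 1809, 2470 and 2552 for YFP, and 277, 3428 and 3416 for DN. All YFP libraries were below all GFP libraries, as was so for 0.583% of the genes tested. This held with TMM scaling but not with the other scalings. With library totals in place of TMM the highest YFP library (2957) passed the lowest GFP library (2805). With DESeq2 size factors it did so too (3208 against 2676).

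Among the heat shock genes, Hspa1a (chr17:34969190-34972156, minus strand) had 2032, 1930, 2209, 2048, 2400 and 1612 CPM for GFP, 1806, 1375, 1618 and 1056 for DP, 1490, 1532, 1053, 1623 and 1120 for YFP, and 594, 1454 and 865 for DN. All 3 DN libraries were below all 6 GFP libraries, as was so for 0.636% of genes. No member of the 10 was wholly lower in DP than in GFP (0.77% of genes). Hspa1b (chr17:34956436-34959238, minus strand) ran close to it, at 1529 to 2541 CPM for GFP, 901 to 2269 for DP, 1200 to 1825 for YFP and 757 to 1802 for DN. The pair shares 82.4% of the 50-base stretches of the Hspa1a coding part, so reads there cannot be placed with certainty. Over the whole Hspa1a transcript 58.8% of such stretches are shared, and 0% of those after the coding part. The 2 genes were counted with a ratio of Hspa1b to Hspa1a of 0.780 to 1.67. Dnajb1 (chr8:83608193-83612653, plus strand), the HSP40 that hands unfolded proteins to HSP70, had 221 to 449 CPM for GFP, 331 to 947 for DP, 197 to 811 for YFP and 210 to 659 for DN. No DP library was below the lowest GFP library in Dnajb1.

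**Figure D2:**
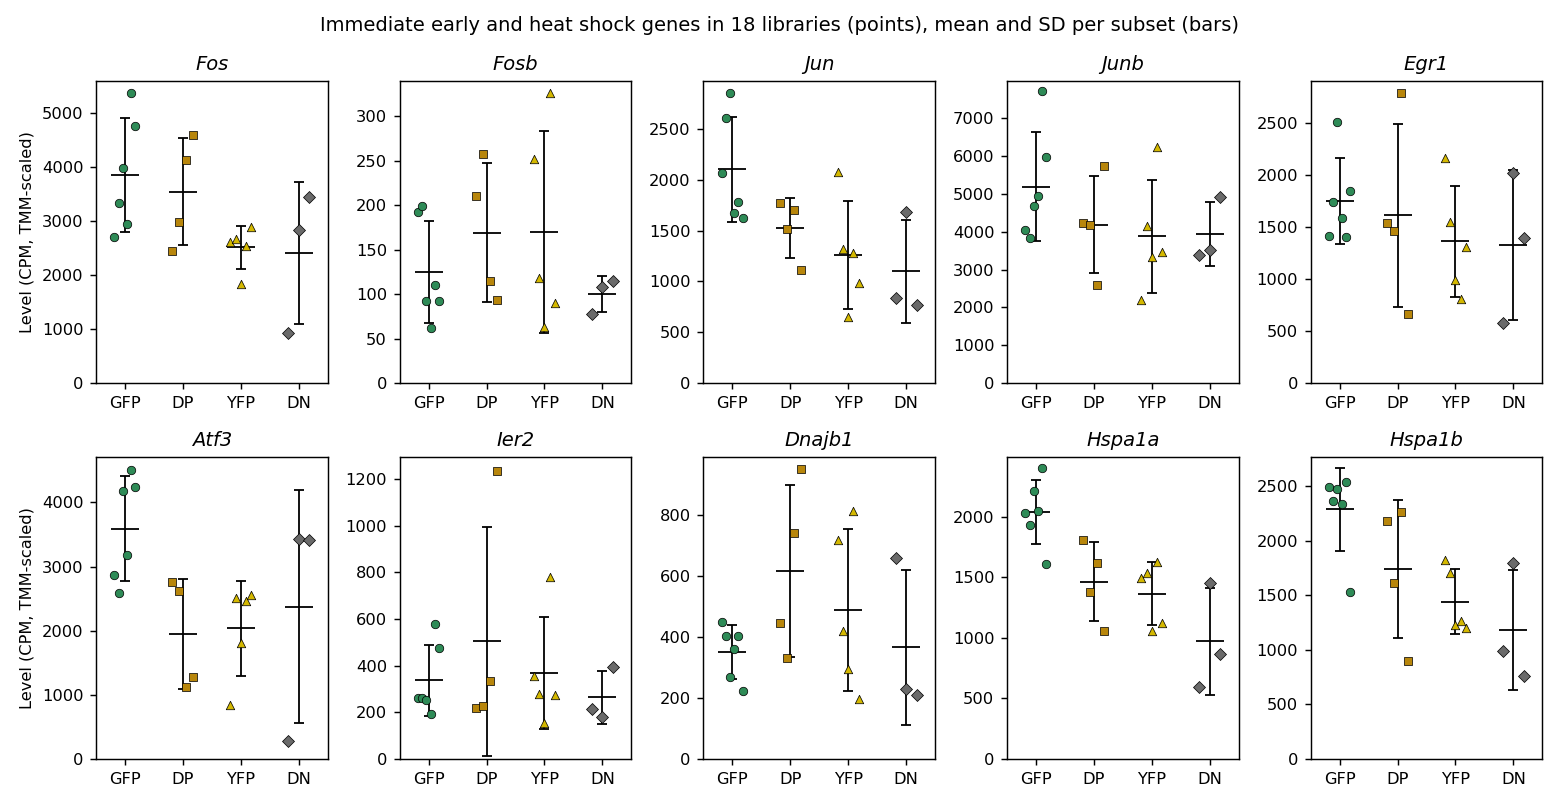
Level of each gene in CPM (linear axis from 0) by subset, 1 point per library, with the mean and SD as bars (6 GFP, 4 DP, 5 YFP and 3 DN libraries). Subset ranges overlap for most genes. For Atf3 the 5 YFP points lie below the 6 GFP points with this TMM scaling, but not with library totals or DESeq2 size factors. For Hspa1a the 3 DN points lie below the 6 GFP points.

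By subset mean, GFP was the highest for 7 of the 10 genes (Fos, Jun, Junb, Egr1, Atf3, Hspa1a and Hspa1b) and DN the lowest for 7. Hspa1a went from 2039 ± 266 CPM for GFP (SD, n = 6) through 1464 ± 324 for DP (n = 4) and 1363 ± 259 for YFP (n = 5) to 971 ± 440 for DN (n = 3). Dnajb1 and Ier2 had their highest mean in DP, at 615 ± 280 and 504 ± 491 CPM (n = 4), and Fosb in YFP. In these orders, each neighbouring pair of subsets lay within the spread for 7 genes, and 2 of the 3 pairs did for Fos, Jun and Hspa1a. The orders hold for TMM and depended on the scaling. With DESeq2 size factors DP had the highest mean for Fos (3892 CPM against 3536 for GFP) and Egr1 (1690 against 1624). With library totals DP had it for Egr1 (1846 against 1798 for GFP) and Fosb (188 against 158 for YFP). The share of all genes with GFP highest or DN lowest was not counted.

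No gene of the 10 passed the test in any comparison (quasi-likelihood test of edgeR, with p adjusted over all genes by Benjamini-Hochberg and a threshold of 0.05). Over the 4 subsets at once, 0 of 10 were called, where 0.332% of all genes were (57 genes; 0 in the blocked fit by replicate number; 0 without DP replicate 5 and 253 without YFP replicate 1), and the smallest p of the members was that of Hspa1a (adjusted p = 0.977, edgeR). For YFP against GFP, 0 of 10 were called (0% of all genes), for DP against GFP 0 (0.198%, or 34 genes, all higher in DP, 0 in the blocked fit, and 0 to 252 with 1 library left out), for YFP against DP 0 (0%), for GFP against DN 0 (0%), for YFP against DN 0 (0%), for DP against DN 0 (0%), and for the interaction of the reporters 0 (0%). Before adjustment, 1 of the 10 had a p under 0.05 in these comparisons, Hspa1a in GFP against DN (log2 fold change 1.07, not called after adjustment), where 231 of the 17143 genes did. With the replicate block, 4 members had such a p in GFP against DN, 2 in YFP against GFP and 3 over the subsets, and with a term for the number set 3 in GFP against DN, none of them called after adjustment. The share of all genes with such a p was not counted in these 2 fits, so their member counts have no background to be read against. DESeq2 called 0 members in each of the comparisons too.

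The fitted differences were modest and their errors wide. In YFP against GFP, 7 of 10 genes were lower and 3 higher, where 48.3% of all genes were lower. The members' median log2 fold change was -0.50, against 0.04 over all genes tested. Leaving out 1 library moved that median between -0.55 and -0.16 (without YFP replicate 4), and DESeq2 size factors gave -0.28 against 0.20 over all genes. Jun stood at -0.73 ± 0.40 on the log2 scale (SE; adjusted p = 0.785, edgeR), Atf3 at -0.82 ± 0.51 (adjusted p = 0.854, edgeR) and Fos at -0.61 ± 0.41, whereas Dnajb1 had a value of 0.48 ± 0.46. Without YFP replicate 4, Jun came to -0.34 and Fos to -0.28, and Dnajb1 to 0.92. Without YFP replicate 1, Atf3 came to -0.45. In GFP against DN the median was 0.50 (0.04 over all genes), with Hspa1a at 1.07 ± 0.45 and Dnajb1 at -0.06 ± 0.53. That median was 0.27 without DN replicate 1, 0.76 without DN replicate 3, 0.78 with the replicate block and 1.28 without the 5 libraries. These 2 comparisons share the GFP libraries. In DP against GFP the members' median was -0.22 and that of all genes 0.20, and the former ran from -0.36 (without DP replicate 4) to 0.20 (without GFP replicate 3) with 1 library left out. With DESeq2 size factors these became 0.00 and 0.38, so that the sign of the members' median depends on the scaling while it was below the median of all genes under both. Dnajb1 (0.81 ± 0.48) and Atf3 (-0.88 ± 0.55) had the highest and lowest values there.

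**Figure D3:**
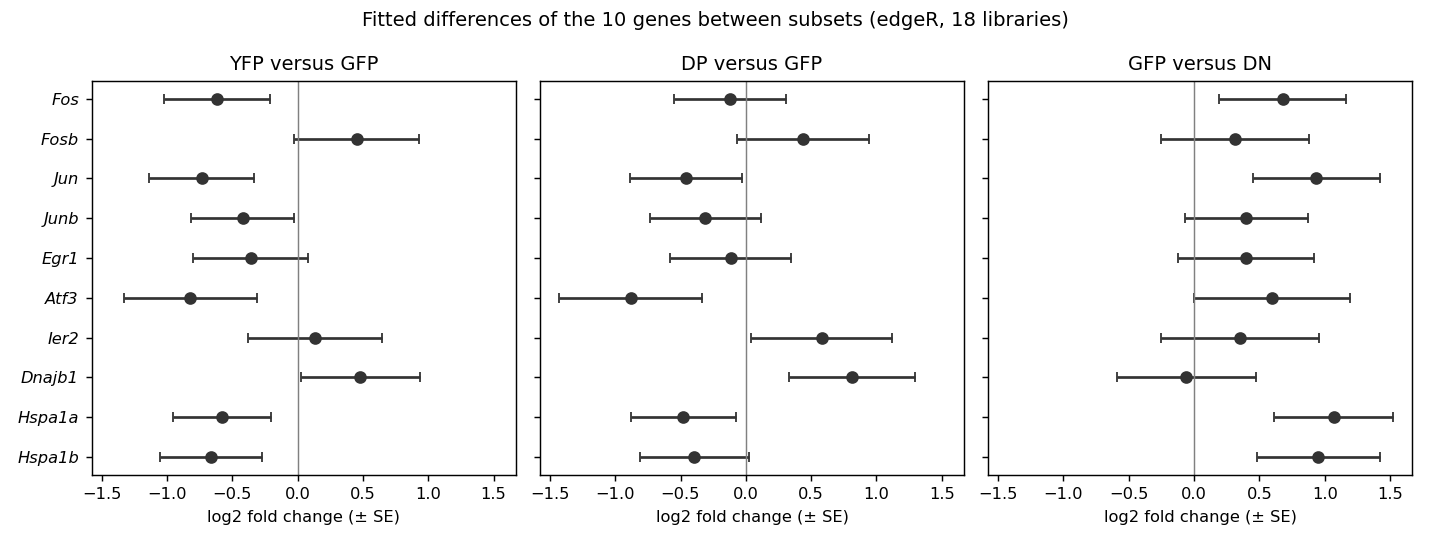
Fitted log2 fold changes (horizontal axis, with SE) of the 10 genes in 3 comparisons of subsets, from 18 libraries. Most points lie below 0 in YFP against GFP and above 0 in GFP against DN. Fosb, Ier2 and Dnajb1 lie above 0 in the first, Dnajb1 lies at -0.06 in the last, and no gene passed the test.

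Calls appeared when the libraries were restricted. Among those numbered 1 and 2, which hold 1 YFP and 1 DN library, Fos, Egr1 and Atf3 were called over the 4 subsets (3 of 10, where 18.1% of genes were), and the lone libraries were taken to vary like the others. DN replicate 1, the DN library in that set, was lowest of all 18 for 4 of the 10 genes. Among libraries numbered 3 to 6, Atf3 was called in DP against GFP (1 of 10, where 1.33% of genes were; adjusted p = 0.0443, edgeR), where DP holds replicates 4 and 5 only, both with a low Cx3cr1.

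Atf3 and Dnajb1 were also set beside Cx3cr1, the fractalkine receptor gene that carries the GFP reporter. The 4 libraries with the least Cx3cr1, namely DP replicate 5 (0.427 CPM), YFP replicate 1 (0.930), DN replicate 1 (4.09) and DP replicate 4 (9.43), were the 4 with the least Atf3 (277 to 1283 CPM). In the other 14 libraries Atf3 was 1809 to 4501 CPM. Dnajb1 went the opposite way: those 4 and YFP replicate 5, the next in Cx3cr1 (26.3 CPM), had its 5 highest values, 659 to 947 CPM, and the other 13 had at most 449. The cut thus differed between the 2 genes. With the cut at 4 libraries, 3 of the 4 were among the 4 highest for Dnajb1. With it at 5, 4 of the 5 were among the 5 lowest for Atf3, as YFP replicate 5 (2470 CPM) lay above YFP replicate 4 (1809). With library totals in place of TMM, 3 of the 4 lowest Cx3cr1 libraries were among the 4 lowest for Atf3, and 3 of the 5 among the 5 highest for Dnajb1. With DESeq2 size factors the counts were 4 of 4 and 5 of 5, as with TMM. This pattern was noticed after the values were seen and was given no test, and the libraries form separate sets on the Cx3cr1 axis, so no correlation is given. The share of all genes that split these libraries in the same way was not counted, so the split cannot be called particular to Atf3 or Dnajb1. The 10 macrophage markers summed to 2000 CPM in DN replicate 1, to 9927 and 10234 in DP replicate 4 and YFP replicate 1, and to 77757 in DP replicate 5, against 20438 to 130249 in the other 14. Other lists stood apart in some of these libraries, though not in all 4. The fibroblast sums of DP replicate 4 (11719 CPM), YFP replicate 1 (10632) and DP replicate 5 (5928) were the 3 highest of all 18. Neutrophil markers summed to 39169, 2566 and 2089 CPM in DP replicates 5 and 4 and DN replicate 1. In YFP replicate 1 they summed to 89.3 CPM, the lowest of all 18. DN replicate 1 had the highest T cell (1364 CPM) and B cell (1165 CPM) sums. The part of these markers in the pattern was not tested.

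**Figure D4:**
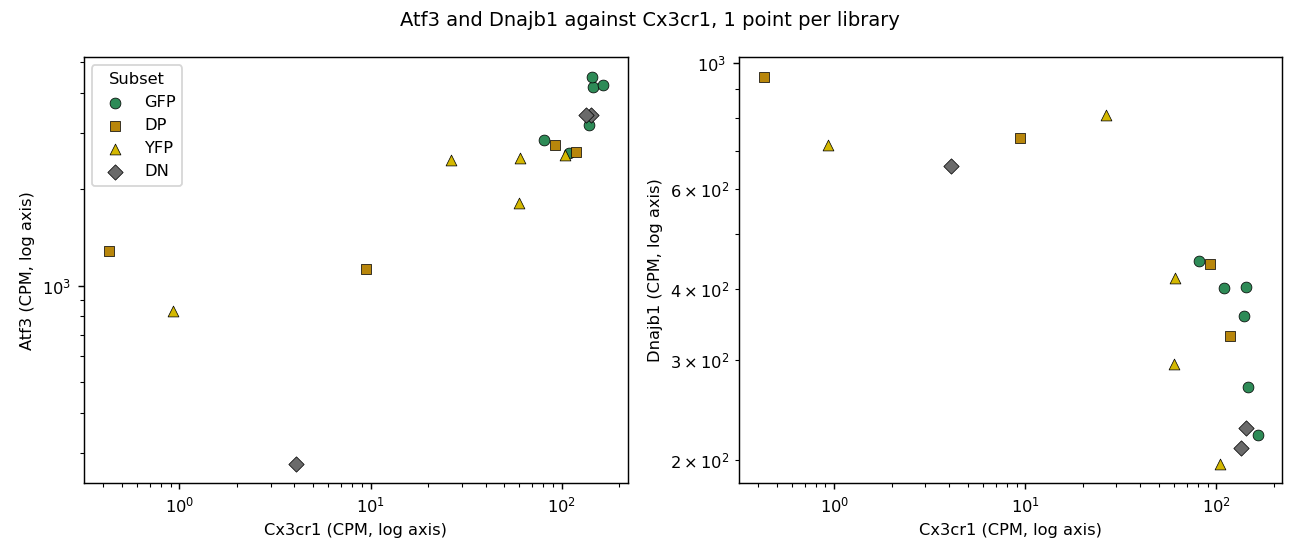
Atf3 (left) and Dnajb1 (right) against Cx3cr1, in CPM on log axes, 1 point per library and 1 marker shape per subset. The 4 libraries under 10 CPM of Cx3cr1 hold the 4 lowest Atf3 values, and the 5 lowest in Cx3cr1 hold the 5 highest Dnajb1 values.

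Members were then compared with each other over the 18 libraries (45 pairs, log2 of CPM + 1, permutation tests adjusted over the 45). Hspa1a and Hspa1b went together (r = 0.88, rho = 0.90, both permutation p = 1e-05, the smallest the permutations can give, adjusted p = 0.00045 and 0.000225; r = 0.89 without the 2 libraries farthest from the median of Hspa1a), within the reads they may share. Jun went with Hspa1b (r = 0.85, rho = 0.89; permutation p = 3e-05, adjusted 0.0006) and with Hspa1a (r = 0.83, rho = 0.80; permutation p = 4e-05, adjusted 0.0006). Jun also went with Egr1 (r = 0.67, rho = 0.72; permutation p = 0.00255, adjusted 0.0212; r = 0.75 without 2 libraries). Within the libraries numbered 1 and 2 (n = 6) and 3 to 6 (n = 12), r was 0.93 and 0.86 for Jun with Hspa1a, 0.93 and 0.81 for Jun with Hspa1b, and 0.90 and 0.63 for Jun with Egr1. The permutations exchanged libraries across subsets and numbers, so differences between subsets enter r and p. With the subset means removed, r was 0.77 for Hspa1a with Hspa1b and 0.73 for Jun with Hspa1b. It was 0.71 for Jun with Hspa1a and 0.63 for Jun with Egr1.

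These 4 pairs were called by r and by rho alike, and 4 more by r alone. The 8 called by r became 3 without GFP replicate 3 and 5 without DN replicate 1. Of the 4 called by r alone, Atf3 with Dnajb1 was negative (r = -0.63, rho = -0.62; permutation p = 0.00283, adjusted 0.0212, and 0.0606 for rho; r = -0.65 without 2 libraries, and -0.82 and -0.66 within the number sets). The other 3, Egr1 with Hspa1a, Egr1 with Hspa1b and Atf3 with Hspa1a, fell to r = 0.30, 0.50 and 0.42 without the 2 libraries, 1 of them DN replicate 1 each time. Positive r was found in 33 of 45 pairs, and 39 with library totals. By kind, 1 of 21 pairs of immediate early genes, 6 of 21 mixed pairs and 1 of 3 heat shock pairs were called. The share of pairs of all tested genes that were called or positive was not counted. These counts therefore cannot be called particular to the members. Dnajb1 had r = -0.04 with Hspa1a and -0.00 with Hspa1b. The libraries share their depth and scaling factor in every pair, and same-numbered libraries may share mice.

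**Figure D5:**
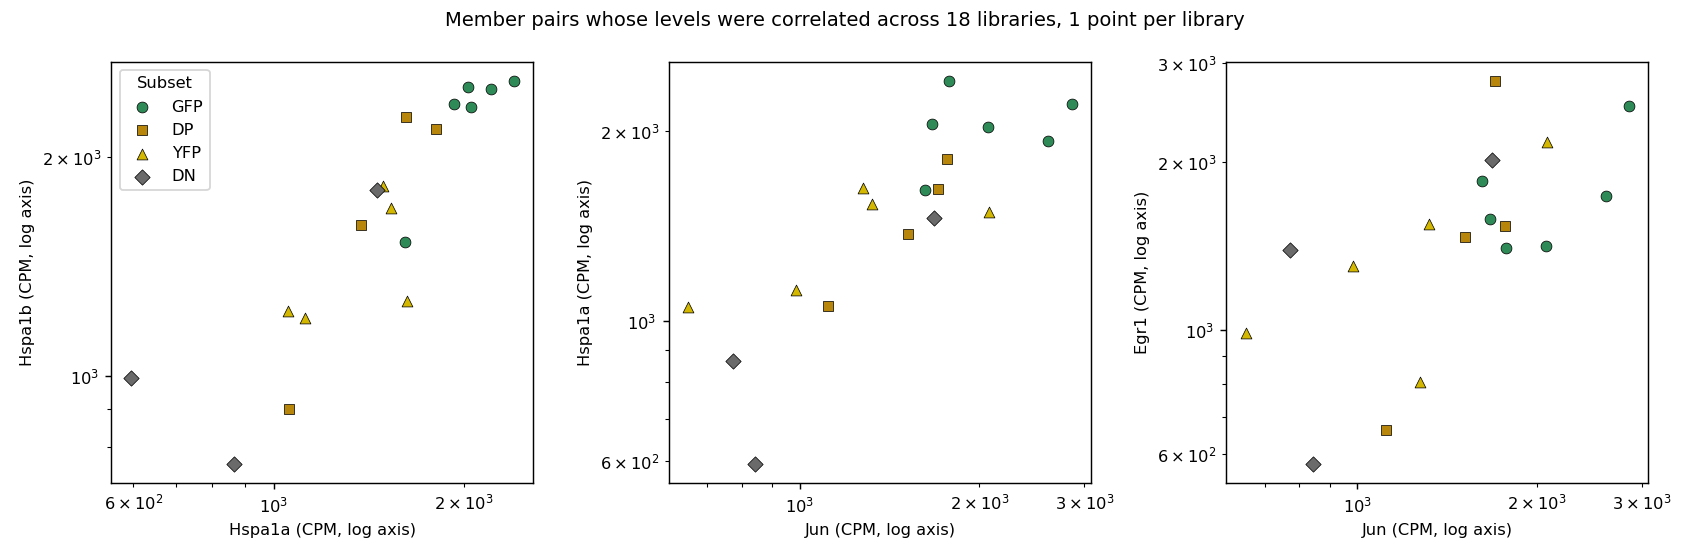
Hspa1b against Hspa1a, Hspa1a against Jun and Egr1 against Jun, in CPM on log axes, 1 point per library and 1 marker shape per subset. The points run upwards in each panel, with r of 0.88, 0.83 and 0.67 over the 18 libraries.

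Over all tested genes, Hspa1b was first and Jun second in likeness to Hspa1a by Spearman's rho. Outside the lists, the genes most like Hspa1a were Trafd1 (rho = 0.72), Clec4a4 (0.70), Slc16a10 (0.70), B930003M22Rik (0.70) and Adap2 (0.69). Their r ran from 0.37 (Trafd1) to 0.77 (Clec4a4). Clec4a4 and B930003M22Rik were near the floor, with medians of 0.683 and 1.86 CPM and a lowest value of 0. For Fos, the nearest members were Ier2 at rank 592, Atf3 at 645 and Junb at 857, with Fosb at 9126 and Dnajb1 at 11365. The genes outside the lists most like Fos were Gna15 (rho = 0.88), Aptx (0.87), 2410091C18Rik (0.85), Tmcc1 (0.85) and Alox5 (0.84), with r from 0.37 (Aptx) to 0.65 (Tmcc1). These are descriptions over 18 libraries.

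Other genes of the same programmes were not called in any comparison either. Of 27 other immediate early genes, 0 were called, 21 were lower in YFP than in GFP (median log2 fold change -0.24) and 22 higher in GFP than in DN (0.32). Of all genes tested, 48.3% were lower in YFP than in GFP and 45.8% lower in GFP than in DN. Both comparisons use the same GFP libraries, and genes that rise and fall together are not independent counts. The smallest p-values of that list over the 4 subsets were those of Klf2, Ier3 and Fosl1, with Klf2 at 566 ± 813 CPM in DP (n = 4) and 148 ± 55.8 in GFP (n = 6; adjusted p = 0.737, edgeR). Ier3, which limits cell death, had 650 ± 177 CPM in GFP and 352 ± 132 in YFP. Of 17 other heat shock genes, 0 were called and 9 were lower in YFP than in GFP (median -0.04), so their median lay near that of all genes. Hspb1, the small chaperone HSP27, had 39.4 ± 14.9 CPM for GFP, 239 ± 250 for DP, 109 ± 97.1 for YFP and 32.4 ± 20.3 for DN (adjusted p = 0.161, edgeR), and Hspe1 and Hsph1 came next in that list. Of 13 regulators, 0 were called, with Hsf2, Mapk14 and Crem first. Of 9 genes of endoplasmic reticulum and metal stress, 0 were called, with Mt2, Mt1 and Herpud1 first, and Mt2, a metal-binding metallothionein, at 99.6 ± 98.6 CPM in YFP and 27.2 ± 6.27 in GFP.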

How the data were processed

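Per the labels' protocols, RNA of sorted cells was made into libraries with SMART-seq v4 (11 cycles) and Nextera XT and sequenced on a HiSeq4000. The deposited values are raw counts of reads, 1 whole number per gene and library. TopHat 1.4.1, SAMtools, HTSeq 0.7.1 and mm10 are named per the submitters' processing notes. Annotation, strand setting and read length are not given in the sources used here. Positions and exon lengths came from GENCODE vM21 (mm10).

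All 18 columns matched samples by name. Every pair of same-subset libraries differed beyond sampling noise. Tests used the quasi-likelihood fit of edgeR 4.0.16 under R 4.3.3 (filterByExpr by subset, TMM, robust quasi-likelihood, 1 mean per subset, Benjamini-Hochberg over 17143 genes). Errors are SD over libraries unless said otherwise, and counts are reads without molecular identifiers. Each member of YFP replicate 6 rested on 30 to 1162 counts (Fosb to Junb). Scripts were tested on simulated data.

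Members and lists were chosen with earlier results of these data known. Named genes were all 10 members, the 3 genes of each other list with the smallest p over the subsets, and the 5 genes outside the lists most like Fos and Hspa1a.

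Same-numbered libraries deviated together with r of 0.57 to 0.67 in GFP and DN, 0.16 to 0.42 in DP and GFP, and 0.16 to 0.34 in YFP and DP, each above 0.1. In YFP and DN r was 0.49, 0.45 and -0.09 for numbers 1, 3 and 6. In DP and DN it was -0.22 for number 1, against 0.48 with another number. The replicate block was fitted on all 18 libraries at once, and so applied to every comparison. In YFP and GFP r was 0.51, 0.48, 0.51 and 0.41 for numbers 1, 3, 4 and 5 and -0.02 for number 6. In DP and GFP (numbers 1 and 4) and in YFP and DP (numbers 1 and 4), the highest r with another number (0.26, 0.33, 0.29 and 0.29) exceeded that with the same one (0.23, 0.16, 0.16 and 0.17). Alternatives were DESeq2 size factors, DESeq2 1.42.0, no filter, each library left out, the 4 libraries against their labels left out, the replicate block, the number sets and, chosen after seeing the data, library totals and the removal of YFP replicate 6 with those 4.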

Additional observations from a re-analysis of the deposited data

Results flagged for a closer look

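Of 30 groups of 4 to 6 libraries, 2 held a library far from the rest, and chance gives about 1 in 20. Ier2 reached 1236 CPM in DP replicate 5, where the next DP library had 335 CPM. Hspa1b was 1529 CPM in GFP replicate 6, where the next GFP library had 2338 CPM. The rule was applied to TMM-scaled values only. With library totals, Ier2 was 658 CPM in DP replicate 5 and 415 in the next DP library. Hspa1b was then 1406 CPM in GFP replicate 6 and 2065 in the next GFP library. With DESeq2 size factors, the highest DP value of Ier2 was 1554 CPM (median 294). The lowest GFP value of Hspa1b was then 1357 CPM (median 2225).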

How the results depend on the processing

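No member was called (0 of 10) in any of the 18 fits that left out 1 library, nor with DESeq2 size factors, library totals, the DESeq2 test, no filter, the 4 or 5 libraries against their labels left out, the replicate block or a number-set term. The smallest adjusted p of a member over these 26 fits was 0.0777 (Atf3, GFP against DN, without the 5 libraries, as chosen after seeing the data). Counts of all genes moved more. Over the 4 subsets the count was 135 with DESeq2 size factors, 429 with DESeq2, 132 with no filter, 165 with numbers 3 to 6, 3327 with numbers 1 and 2, and 0 with library totals, without the 4 libraries, with the replicate block and with the number-set term. For DP against GFP it was 92, 351, 62, 188, 244 and 0 in the same order. Without the 5 libraries it was 20 over the subsets, 0 for DP against GFP, 55 for YFP against GFP and 1 for YFP against DN. For YFP against GFP it was 181 with DESeq2, 9 with no filter and 1438 with numbers 1 and 2. DESeq2 gave 133 genes for YFP against DP, 11 for YFP against DN, 25 for DP against DN and 10 for the interaction. Numbers 3 to 6 gave 9 for YFP against DP, 1 for DP against DN and 1 member for DP against GFP (Atf3). Numbers 1 and 2, with 1 YFP and 1 DN library, gave 1496 genes for YFP against DP, 2296 for GFP against DN, 1807 for YFP against DN, 2584 for DP against DN and 680 for the interaction. Members called there, each beside the share of the 18359 genes tested, were 3 over the subsets (18.1%), 1 for YFP against GFP (7.83%), 1 for YFP against DP (8.15%), 5 for GFP against DN (12.5%), 4 for YFP against DN (9.84%) and 5 for DP against DN (14.1%). Leaving out 1 library gave 0 to 253 genes over the subsets, 0 to 252 for DP against GFP and 0 to 11 for YFP against GFP. Log2 fold changes of DP against GFP that changed sign were those of Fos (0.138 with DESeq2 size factors and with DESeq2, 0.0552 with the replicate block, 0.0737 with numbers 3 to 6), Egr1 (0.0576 with DESeq2 size factors and with DESeq2, 0.0380 with library totals, 0.0352 without the 4 libraries, 0.00346 with numbers 3 to 6), Ier2 (-0.303 without the 4 libraries, -0.604 without the 5, -0.167 with numbers 1 and 2), and with numbers 1 and 2 Junb (0.159), Atf3 (0.0452) and Dnajb1 (-0.0656). For YFP against GFP they were Ier2 (-0.0721 with library totals, -0.0353 with the replicate block, -0.00601 with numbers 3 to 6) and, with numbers 1 and 2, Jun (0.00310) and Egr1 (0.633). With 1 library left out, DP against GFP ranged from -0.20 to 0.40 for Fos, -0.52 to 0.34 for Egr1, -0.38 to 0.26 for Junb, -0.55 to 0.0111 for Hspa1b and -0.13 to 1.37 for Ier2, and YFP against GFP from -0.21 to 0.71 for Ier2. The members' median ranged from -0.36 to 0.20 for DP against GFP, -0.55 to -0.16 for YFP against GFP, -0.60 to -0.17 for YFP against DP, 0.27 to 0.76 for GFP against DN, 0.08 to 0.52 for YFP against DN and 0.29 to 1.01 for DP against DN. Without the 5 libraries it was 1.28, 1.08 and 1.18 for GFP, YFP and DP against DN. Called pairs of members numbered 6 with DESeq2 size factors, 14 with library totals, 11 without the 4 and without the 5 libraries, 3 with numbers 3 to 6, 0 with numbers 1 and 2, and 3 to 11 with 1 library left out. The causes of these changes were not tested. The replicate block changed no other call. The 289166 counts of YFP replicate 6 limit its precision: Fosb rested on 30 counts there.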
